A study of Mus musculus with 4 samples.

Results

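A set of 8 liver transcripts tied to glucocorticoid hormone was followed in Wrn mutant and wild-type mice. They are Hsd11b1, Fkbp5, Tsc22d3, Sgk1, Klf9, Zfp36, Dusp1 and Errfi1, picked by symbol from the 20909 genes that the authors named, and all 8 were found, each with 1 probe. For 7 of the 8 every array gave a value, and Zfp36 had values on 2 arrays and was not tested. Each of 4 two-colour Agilent arrays compared the liver RNA of 1 Wrn mutant with that of 1 wild-type animal, all of them C57Bl/6 males aged 3 months, untreated, with food and water always at hand and 12 h of light and 12 h of dark on a reversed schedule. The mutant RNA carried Cy3 in pairs 1 and 2 and Cy5 in pairs 3 and 4. The sources used here give neither the hour at which livers were taken nor the part of Wrn that was altered.

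Glucocorticoids, corticosterone in the mouse, enter hepatocytes and bind the glucocorticoid receptor Nr3c1, which waits in the cytosol in a complex with HSP90 chaperones and FKBP proteins. The bound receptor moves into the nucleus and raises or lowers transcription at DNA elements made of a short arm and its inverted copy. Blood levels of the hormone follow a daily rhythm and rise with stress and fasting, and in the liver the receptor drives glucose production and damps inflammation. Within the liver cell the enzyme encoded by Hsd11b1 makes active hormone from its inactive 11-keto form. The other 7 transcripts are raised by the hormone in many tissues, and most of them also answer to other signals.

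Every ratio is mutant over wild type, on the log2 scale. That direction is likely rather than stated: it rests on the sample titles and on the authors' deposited comparison, which put the mutant first. If the ratios were inverted, every sign below would turn. Across the 4 arrays 37627 to 40104 of 41174 probes had a value, and array medians lay between 0.00371 and 0.0182. With 4 arrays, the precision of each value is limited by their number. The probe for the hepatocyte gene Alb was brighter than 99.9% of named probes. In 4 of 4 pairs the Wrn probe had a ratio above 0, with a mean of 1.29 ± 0.37 (SD, n = 4), which checks neither the labels nor the direction while the altered part of the gene is unknown.

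The element bound by the receptor was searched for in the start regions of these genes. Sites farther from the starts were not searched. RefSeq (GRCm38.p6) gave 16 windows for the 8 genes, each of 250 bases before and 50 after a transcript start. The full element, taken as the core ACANNNTGT with a G before it and a C after it, each set off by any 1 base, and searched on both strands, was in 1 of the 16 windows, against 0.475% of all 32851 windows. That window belongs to Sgk1, at chr10:21993640-21993939 on the plus strand, and holds the element at bases -188 to -176 before the start, at positions 21993702 to 21993714. The single arm AGAACA, which can overlap the full element, was in 4 of the 16 windows, 3 of Sgk1 and 1 of Tsc22d3, against 19.0% of all windows. By gene, the full element was in 1 of the 8 and the arm in 2, against 0.537% and 21.3% of 27025 genes. Sgk1 had more windows than any other of the 8 genes, so it had more chances to hold a motif. Neither motif was in the windows of the 6 genes other than Sgk1 and Tsc22d3, which says only that these letters are not in those windows of 300 bases. Shown are the Sgk1 window, the Fkbp5 window (chr17:28486100-28486399, minus strand), because Fkbp5 had the lowest ratios, and the Errfi1 window at the 5′ end of the annotated gene (chr4:150853546-150853845, plus strand), because Errfi1 was higher in every pair. Capitals mark full elements and single arms.
Sgk1: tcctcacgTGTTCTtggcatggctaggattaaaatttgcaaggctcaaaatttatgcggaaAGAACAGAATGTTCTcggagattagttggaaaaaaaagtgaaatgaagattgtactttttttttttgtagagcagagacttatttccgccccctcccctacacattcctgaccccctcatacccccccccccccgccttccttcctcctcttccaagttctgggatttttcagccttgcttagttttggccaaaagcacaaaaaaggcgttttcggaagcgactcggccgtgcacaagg
Fkbp5: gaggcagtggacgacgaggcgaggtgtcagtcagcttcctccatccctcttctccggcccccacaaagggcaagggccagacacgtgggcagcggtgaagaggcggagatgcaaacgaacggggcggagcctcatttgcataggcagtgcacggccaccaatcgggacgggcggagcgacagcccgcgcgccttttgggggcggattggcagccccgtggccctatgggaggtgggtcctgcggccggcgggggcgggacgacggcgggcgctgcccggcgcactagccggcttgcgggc
Errfi1: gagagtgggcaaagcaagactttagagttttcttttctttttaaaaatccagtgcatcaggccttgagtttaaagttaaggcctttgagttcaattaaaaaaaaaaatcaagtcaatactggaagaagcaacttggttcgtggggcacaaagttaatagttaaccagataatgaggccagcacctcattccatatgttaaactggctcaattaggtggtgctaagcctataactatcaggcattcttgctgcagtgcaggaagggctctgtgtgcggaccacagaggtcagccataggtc

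Of the 7 tested members, 0 passed. With limma fitted across all probes, a dye term and Benjamini-Hochberg adjustment, 0 of 40238 probes (0.0%) had an adjusted p under 0.05. A prior variance that follows intensity called 42 of 20379 named probes (0.206%), and a fit on the brighter named probes alone called 1 of 10414 (0.0096%), with 0 members among either. At an unadjusted p under 0.05, 1 member was lower (Fkbp5) and 1 was higher (Errfi1), where 3.19% and 3.45% of all probes were. Of the 7, 2 were higher in 4 of 4 pairs and 1 was lower in 4 of 4 pairs, against 10.9% and 10.1% of the 17686 named genes with 4 values. The remaining 4 had pairs on both sides of 0. Of the 7, 6 had a mean above 0, where 53.4% of named genes did, and their median fitted log2 ratio was 0.30, against 0.02 over all probes tested. That median was 0.51 without pair 2 and 0.17 without pair 4. These shares come from 7 genes measured on the same arrays, so they describe the members and test nothing.

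**Figure D1:**
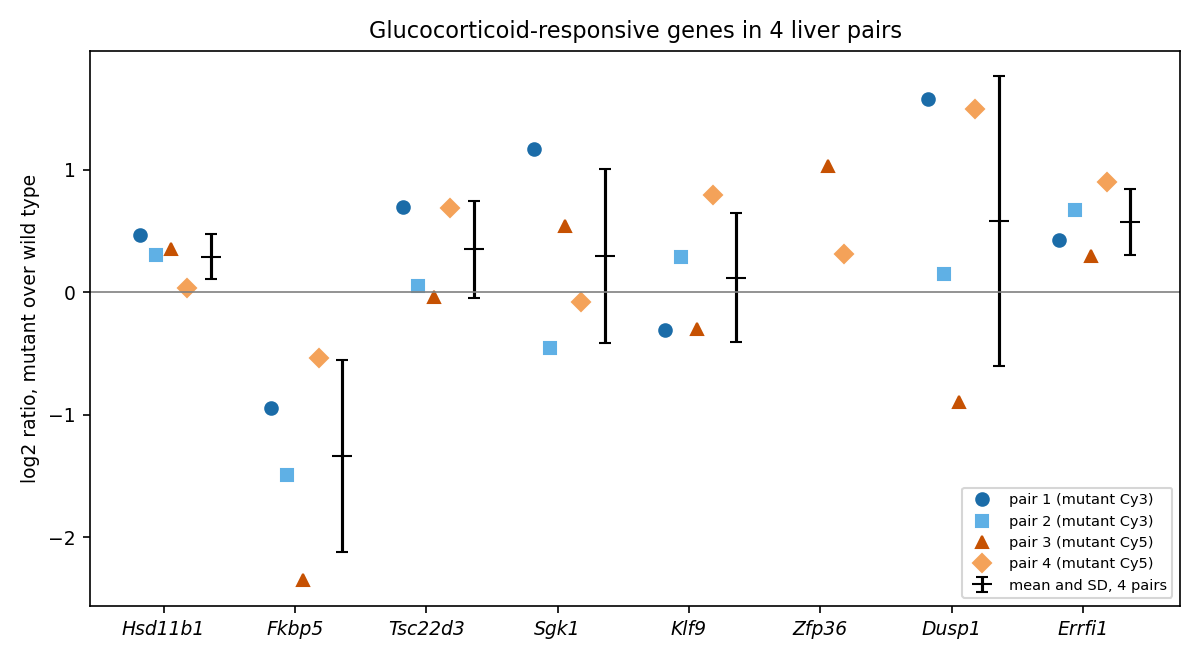
Log2 ratio of mutant over wild type (vertical axis) for each of the 8 genes (horizontal axis), with 1 point per pair, blue where the mutant carried Cy3 and orange where it carried Cy5; black bars are the mean and SD of 4 pairs. Fkbp5 lies below 0 in all 4 pairs and Hsd11b1 and Errfi1 above 0 in all 4, while Dusp1 runs from -0.90 to 1.58.

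Hsd11b1, which activates the hormone, had log2 ratios of 0.47, 0.31, 0.36 and 0.03 in pairs 1 to 4. All 4 pairs were above 0, pair 4 barely so, and the mean was 0.29 ± 0.19 (SD, n = 4), or 1.22-fold. Its spread was narrow: 11.9% of named genes with 4 values had a smaller SD. The ratio did not pass (standard error 0.16, adjusted p = 0.744 with limma), and its 95% interval of -0.15 to 0.73 holds 0. Flipping the signs of the 4 pairs gave an exact two-sided permutation p of 0.125, and 4 pairs cannot give a smaller one. H6pd, which supplies that enzyme with NADPH inside the endoplasmic reticulum, was at -0.26, 0.09, -0.35 and -0.24, so 3 of its 4 pairs were on the other side of 0 from Hsd11b1.

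Fkbp5 stood at the low end of the members in each pair. It encodes a co-chaperone that lowers the receptor's affinity for hormone and is itself induced by the hormone, which closes a feedback loop. Its log2 ratios were -0.95, -1.49, -2.35 and -0.54 in pairs 1 to 4, so the mutant read from 1.45-fold lower in pair 4 to 5.11-fold lower in pair 3. The mean of -1.33 ± 0.78 (SD, n = 4) lay below that of all but 0.582% of named genes with 4 values. The fitted value had a standard error of 0.36 and a 95% interval of -2.35 to -0.32, with an unadjusted p of 0.022 and an adjusted p of 0.736 in limma. The exact sign-flip p was 0.125. Means within the dye orientations were close, at -1.22 with the mutant in Cy3 and -1.45 with the mutant in Cy5. Leaving out pair 3 brought the fitted value to -0.88 and leaving out pair 4 to -1.79. In each fit without 1 pair, a lone pair of an orientation counts as much as both pairs of the other, so it is not the plain mean of the remaining pairs.

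The receptor Nr3c1 did not share that pattern. Its log2 ratios were 0.29, -0.23, -0.22 and -0.08, with a mean of -0.06 ± 0.25 (SD, n = 4). Fkbp4, the co-chaperone that takes the place of Fkbp5 in the complex once hormone binds, was at -0.54, -0.78, -0.07 and -0.17, below 0 in every pair. Hsp90aa1, an HSP90 isoform, was also below 0 in every pair, at a mean of -0.26 ± 0.10, and the chaperone Hspa8 was above 0 in every pair, at 0.44 ± 0.36. Among the coregulators Nrip1 was at 0.45 ± 0.43 and Ncoa3 at 0.20 ± 0.08, both above 0 in 4 of 4 pairs. Of 16 tested genes for the receptor, its chaperones and coregulators, 10 had a mean above 0 and 6 below, 0 passed, and the median was 0.20, or 0.12 without pair 2 and 0.13 without pair 3.

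Other genes of the FKBP family, peptidyl-prolyl isomerases and relatives, were mostly below 0. Of 14 tested, 10 had a mean below 0 and 4 lay below 0 in every pair. Among named genes 53.4% had a mean above 0 and 10.1% lay below 0 in every pair. The median of the 14 was -0.27, with 0 past the adjusted threshold, and it was -0.15 without pair 1, -0.14 without pair 2 and -0.18 without pair 4. Fkbp11, an isomerase of the secretory pathway, was at -1.16, -0.95, -1.51 and -0.88. Fkbp1a, the small FKBP that binds the drug FK506, was at -0.61 ± 0.21 (SD, n = 4). Fkbp7 was the 1 member of the family above 0 in every pair, at 0.18 ± 0.21. Fkbp5 and Fkbp11 thus had the lowest values of the family, though pair 3 set Fkbp5 apart from the other pairs more than it did Fkbp11.

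Tsc22d3, also called GILZ, is a leucine zipper protein that carries part of the hormone's anti-inflammatory action. Its log2 ratios were 0.70, 0.05, -0.04 and 0.69. Pairs 1 and 4 were high and nearly equal, and pairs 2 and 3 sat near 0. The mean was 0.35 ± 0.40 (SD, n = 4), with a 95% interval of -0.27 to 0.97 and an adjusted p of 0.765 in limma. Leaving out 1 pair gave fitted values from 0.17 to 0.53. Its relatives Tsc22d1, Tsc22d2 and Tsc22d4 had a median of -0.01 over 3 genes, of which 1 was above and 2 below 0, and 0 passed. That median was 0.13 without pair 2, -0.093 without pair 3 and 0.40 without pair 4. Fits without 1 pair drop a gene that lacks a value in a remaining pair. Of the 3 relatives, 2 had 4 values, so the genes as well as the pairs can differ between these medians.

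Sgk1, a kinase that acts on ion channels and on FOXO factors, is the gene whose start region holds the full element shown above. Its log2 ratios were 1.17, -0.45, 0.54 and -0.08. The pairs split evenly around 0 without regard to the dye orientation, and the mean of 0.30 ± 0.71 (SD, n = 4) did not differ from 0 beyond its spread (adjusted p = 0.838 with limma). Without pair 1 the fitted value was -0.11. Of 9 tested relatives and substrates, 5 had a mean above 0 and 4 below, with a median of 0.17 and 0 past the threshold. That median was -0.045 without pair 2, 0.33 without pair 3 and 0.096 without pair 4. Nedd4l, a ubiquitin ligase that SGK1 phosphorylates, was below 0 in 4 of 4 pairs at -0.74 ± 0.54, and Foxo3 (Foxo3a in the authors' table) was above 0 in 4 of 4 at 0.32 ± 0.14.

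Klf9, a zinc finger transcription factor, had log2 ratios of -0.31, 0.29, -0.30 and 0.80. Again 2 pairs were above and 2 below 0, and the mean of 0.12 ± 0.53 (SD, n = 4) was the smallest in size of the 7, with an adjusted p of 0.918 in limma. The fitted value was -0.03 without pair 2 and -0.15 without pair 4, where the lone pair of an orientation counts as much as both pairs of the other. Of 16 other KLF genes tested, 9 had a mean above 0 and 7 below, with a median of 0.12, or 0.19 without pair 2, and 0 past the threshold. Of the 16, 14 had 4 values, so the median without pair 2 can rest on fewer genes. Klf2, Klf10 and Klf1 were above 0 in 4 of 4 pairs, at 0.82 ± 0.31, 0.78 ± 0.28 and 0.66 ± 0.51.

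Dusp1 was the most variable member. It encodes a phosphatase that switches off MAP kinases, and it responds within minutes to stress as well as to glucocorticoid. Its log2 ratios were 1.58, 0.15, -0.90 and 1.50, so the highest and lowest pair differed by 2.48 log2 units, and 87.9% of named genes with 4 values had a smaller SD. Pairs 1 and 4 were high, pair 2 was near 0 and pair 3 was low. The mean was 0.58 ± 1.19 (SD, n = 4), with a 95% interval of -0.85 to 2.01 and an adjusted p of 0.806 in limma. Without pair 3 the fitted value was 1.18, and without pair 4 it was -0.02. Of 18 other DUSP genes tested, 11 had a mean above 0 and 7 below, with a median of 0.14, or -0.062 without pair 3, and 0 past the threshold. Of the 18, 15 had 4 values, so the median without pair 3 can rest on fewer genes. Dusp12 and Dusp4 were below 0 in 4 of 4 pairs, at -0.70 ± 0.35 and -0.60 ± 0.25, and Dusp28, Dusp7 and Dusp11 above 0 in 4 of 4, at 0.28 ± 0.20, 0.15 ± 0.18 and 0.12 ± 0.05. The Dusp4 probe was dim, brighter than 23.3% of named probes.

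Zfp36, also called tristetraprolin, binds AU-rich elements and speeds the decay of cytokine mRNAs. Its probe was dim, brighter than 38.9% of named probes, and gave values in pairs 3 and 4 alone, at 1.03 and 0.31. Both were above 0 and both came from arrays with the mutant in Cy5, so labelling and genotype cannot be told apart for it. Among 12 tested relatives and partners in mRNA decay, 6 had a mean above 0 and 6 below, with a median of 0.02 and 0 past the threshold. Their median changed sign with the pairs used, from -0.095 without pair 4 and -0.043 without pair 2 to 0.058 without pair 3 and 0.068 without pair 1. Cnot2, a subunit of the CCR4-NOT deadenylase, was below 0 in 4 of 4 pairs at -0.52 ± 0.18 (SD, n = 4).

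Errfi1, also called MIG6, binds and inhibits the EGF receptor. Its log2 ratios were 0.43, 0.67, 0.30 and 0.90, all above 0, with a mean of 0.57 ± 0.27 (SD, n = 4), or 1.49-fold. The 95% interval was 0.06 to 1.09, the unadjusted p was 0.036 and the adjusted p was 0.736 in limma. The exact sign-flip p was 0.125. The probe was among the brightest, above 98.1% of named probes. Egfr itself was below 0 in every pair, at -0.99, -0.67, -0.51 and -0.12, with a mean of -0.57 ± 0.36. Erbb4 was above 0 in every pair at 0.80 ± 0.12 and the ligand gene Ereg below 0 in every pair at -0.22 ± 0.11. The Ereg probe was dim, brighter than 19.3% of named probes. Of 11 genes for the EGF receptor family and its ligands, 8 had a mean above 0 and 3 below, with a median of 0.26 and 0 past the threshold. Leaving out pair 1 took it to 0.11, pair 2 to 0.037 and pair 4 to 0.15, and in the brighter named probes it was 0.013.

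**Figure D2:**
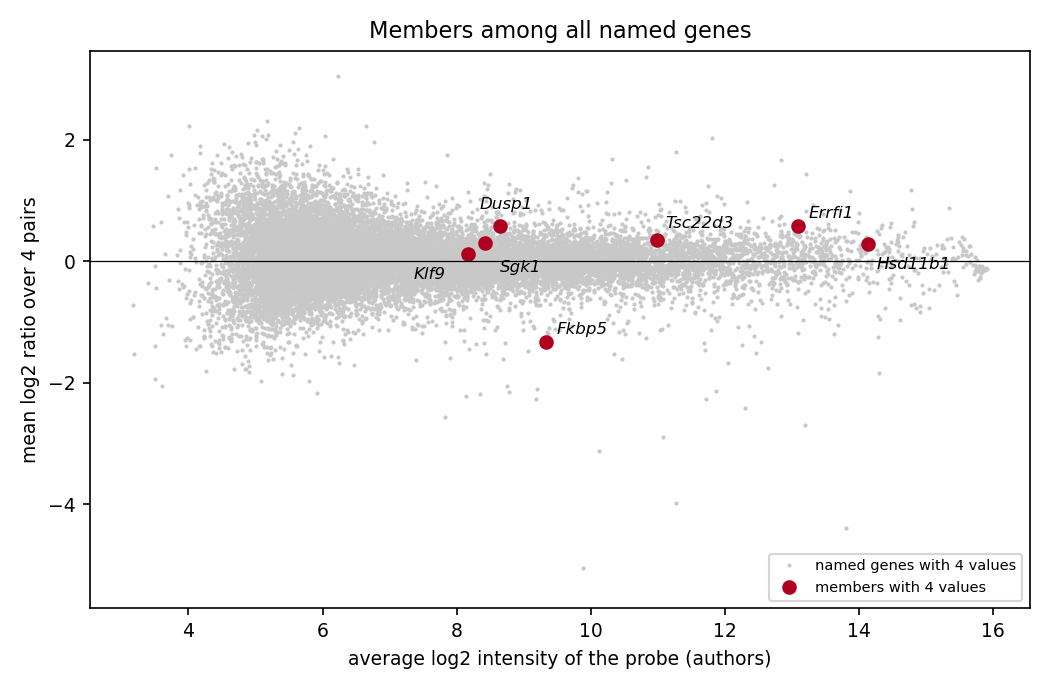
Mean log2 ratio over 4 pairs (vertical axis) against the average log2 intensity of the probe as the authors gave it (horizontal axis), for 17686 named genes with 4 values in grey and the 7 members with 4 values in red. Fkbp5, at -1.33, lies near the lower edge of the cloud at its intensity, and the other 6 lie between 0.12 and 0.58.

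Other genes that glucocorticoids are known to induce were divided as well. Of 31 tested, 21 had a mean above 0 and 10 below, where 53.4% of named genes had a mean above 0. Of the 30 with 4 values, 8 were higher and 3 lower in 4 of 4 pairs, against 10.9% and 10.1% of named genes. Among the 31, 0 passed, and the median was 0.13, against 0.02 over all probes tested. It was 0.19 without pair 1, 0.28 without pair 2 and 0.25 without pair 3. Per1, a clock gene with a glucocorticoid element, was at 1.48, 0.78, 0.28 and 1.61, above 0 in every pair, with a mean of 1.04 ± 0.62 (SD, n = 4). G6pc, the last enzyme of glucose release, was at 1.84, 1.55, 2.74 and 0.56, and Angptl4, an inhibitor of lipoprotein lipase, at 0.39, 1.64, 1.38 and 1.94. Cebpd, a transcription factor, was at 0.72 ± 0.29. On the other side, the metallothionein genes were lower in every pair by very uneven amounts. Mt2 was at -0.75, -2.85, -6.52 and -2.40, and Mt1 at -0.14, -2.91, -4.69 and -1.35. Ddit4, an inhibitor of mTORC1, was at -0.39 ± 0.22. Tat, a classical hormone-induced enzyme of tyrosine breakdown, had pairs on both sides of 0 with a mean of 0.13 ± 0.27, and Igfbp1 was at -0.55 ± 0.78 with 3 of 4 pairs below 0.

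The genes for supply and clearance of the hormone had a median of 0.02 over 16 tested, with 8 above and 8 below 0 and 0 past the threshold. Leaving out 1 pair moved it between -0.099 (pair 4), -0.056 (pair 2), 0.034 (pair 1) and 0.081 (pair 3). Serpina6, which encodes the corticosteroid-binding globulin of plasma, was at 1.00, 0.32, 0.45 and 1.10, above 0 in every pair, with a mean of 0.72 ± 0.39 (SD, n = 4). Abcb1b, a drug and steroid efflux pump, was at -2.07, -0.54, -0.39 and -0.49, where pair 1 stood apart. Srd5a1, a steroid 5-alpha reductase, was at -0.30 ± 0.24 and Akr1c6 at 0.22 ± 0.15, each on 1 side of 0 in 4 of 4 pairs.

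Inflammatory genes that the hormone represses were mostly dim here, with 15 of 20 tested probes below the median intensity of named probes. Of the 20, 13 had a mean above 0 and 7 below, with a median of 0.28 and 0 past the threshold, and the pair medians were 0.86, 0.24, -0.20 and -0.08. The fitted median was 0.094 without pair 1 and 0.45 without pair 2. Of the 20, 16 had 4 values, and fits without 1 pair drop a gene that lacks a value in a remaining pair. Ccl5 was the 1 gene above 0 in 4 of 4 pairs, at 0.33 ± 0.29 (SD, n = 4). Immediate early genes, to which Dusp1 and Zfp36 also belong, had a median of 0.05 over 23 tested, 12 above and 11 below 0, with 0 past the threshold. That median was below 0 with any 1 pair left out, at -0.028, -0.068, -0.011 and -0.082 without pairs 1 to 4. Of the 23, 22 had 4 values, so these medians can also rest on fewer genes. Egr1, Ier3 and Fosl2 were below 0 in every pair, at -1.11 ± 0.62, -0.58 ± 0.37 and -0.14 ± 0.17, and Klf2 and Nr4a2 above 0 in every pair, the latter at 0.24 ± 0.20. Dusp1 and Egr1, both rapid responders, thus lay on opposite sides of 0 in pairs 1, 2 and 4.

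**Figure D3:**
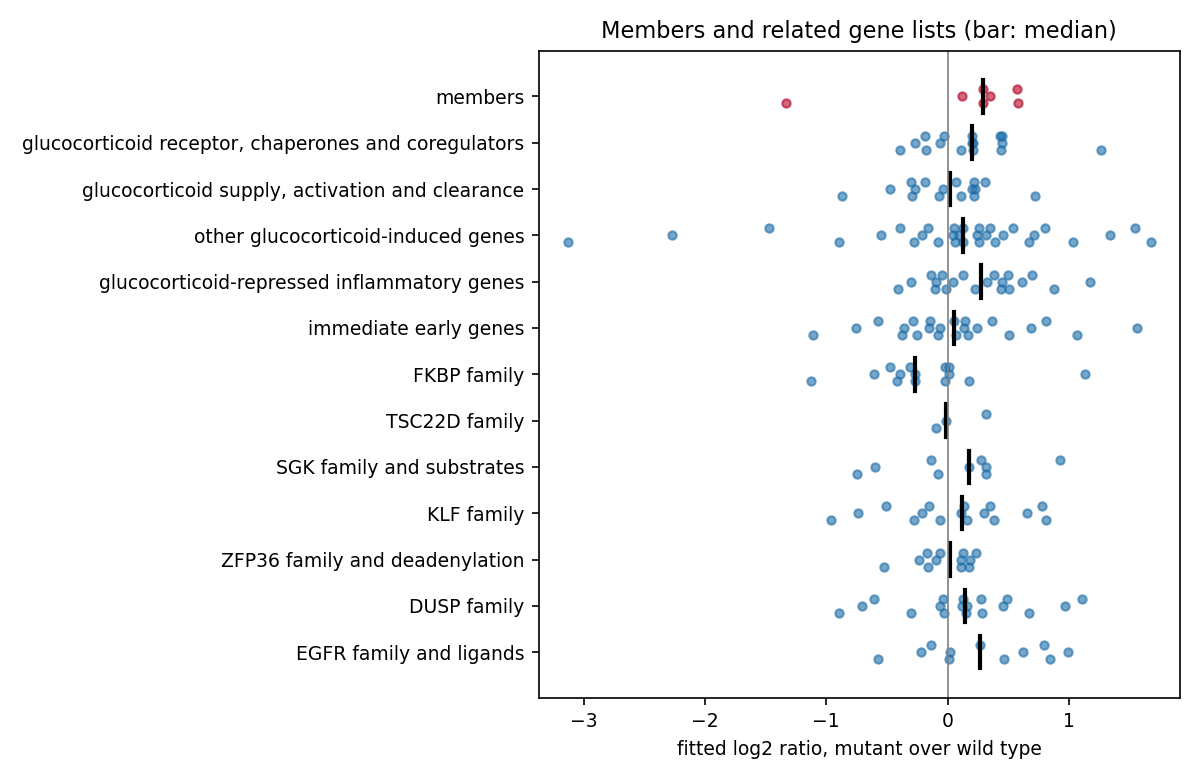
Fitted log2 ratio of mutant over wild type (horizontal axis) for each tested gene of the members (red) and of 12 related lists (blue), 1 row per list, with a black bar at the list's median. List medians run from -0.27 for the FKBP family to 0.30 for the members, and in each list genes lie on both sides of 0.

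Markers of liver cell types were read as well. Kupffer cell and macrophage markers had a mean above 0 in 12 of 12 genes, where 53.4% of named genes did. Of the 11 with 4 values, 2 were higher in 4 of 4 pairs, against 10.9% of named genes. B and plasma cell markers had a mean above 0 in 6 of 6 genes, erythroid in 3 of 3 and sinusoidal endothelial in 9 of 10. Cholangiocyte markers did in 1 of 8, hepatocyte in 3 of 9 and stellate cell in 3 of 8. The Kupffer cell and macrophage pair medians were 0.73, 1.01, -0.22 and 0.94, lowest in pair 3. Among the members, Fkbp5, Tsc22d3, Dusp1 and Errfi1 were also lowest in pair 3, and Sgk1, Klf9 and Hsd11b1 were not. Hepatocyte markers had a median of -0.10, sinusoidal endothelial markers 0.33, cholangiocyte markers -0.45, stellate cell markers -0.19, B and plasma cell markers 0.89, T and NK cell markers 0.22, neutrophil markers 0.22, erythroid markers 0.46 and adipocyte markers 0.15. Each is a median of log2 ratios, and 0 of the genes passed. Pair medians lay on both sides of 0 for several of these lists. They were 0.04, -0.06, -0.18 and -0.03 for hepatocyte markers and -0.74, 0.04, 0.42 and 0.06 for stellate cell markers. Neutrophil markers were at -0.38, 0.46, -0.05 and -0.0005, and adipocyte markers at -0.58, -0.15, 0.89 and 0.32. In whole liver, fewer cells of a type and less RNA per cell cannot be told apart, and the part of these cells in the members' values was not tested.

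Ordered by pair, 3 members followed 1 sequence. In Fkbp5, Tsc22d3 and Dusp1 both pair 1 and pair 4 lay above both pair 2 and pair 3, an order that crosses the dye orientations. It was noticed after the values were seen. It held in 3 of the 7 members, in 11 of 30 other hormone-induced genes, Per1, Cebpd, Mt1 and Mt2 among them, and in 16.1% of all 17686 named genes with 4 values. In the related lists it held in 1 of 16 genes for the receptor, its chaperones and coregulators, and 1 of 14 FKBP genes. It held in 4 of 16 supply genes, 5 of 16 repressed genes and 4 of 22 immediate early genes. It also held in 3 of 9 SGK, 4 of 14 KLF, 2 of 15 DUSP, 2 of 11 EGF receptor, 0 of 12 ZFP36 and 0 of 2 TSC22D genes. Among markers it held in 3 of 5 B and plasma cell, 1 of 9 hepatocyte, 1 of 9 sinusoidal endothelial and 1 of 8 cholangiocyte genes. In each other marker list it held in 0 genes. The opposite order held in 0 of the members, 2 of the 30 induced genes and 16.4% of named genes. It held in 3 of the 16 receptor genes, 3 of the 14 FKBP, 1 of the 16 supply, 2 of the 16 repressed and 3 of the 22 immediate early genes. It also held in 2 of 9 SGK, 1 of 14 KLF, 4 of 15 DUSP, 2 of 11 EGF receptor, 1 of 12 ZFP36 and 1 of 2 TSC22D genes. Fkbp5 followed the first order at a lower level than the other members, with a ratio below 0 even in pairs 1 and 4. Klf9, Sgk1, Errfi1 and Hsd11b1 did not follow that order. The order was not tested.

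The dye coefficient, which compares the pairs of opposite orientation, ran from -0.13 for Klf9 to 0.28 for Dusp1 among the members. It passed in 0 of 40238 probes (0.0%) with limma, and its adjusted p was at least 0.886 in each of the 7. Of the 7, 6 had orientation means on the same side of 0. The exception was Klf9, at -0.01 with the mutant in Cy3 and 0.25 with the mutant in Cy5. In the same order, Dusp1 was at 0.86 and 0.30, and Hsd11b1 at 0.39 and 0.19.

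Genes with the closest profile were found for the 3 members with 1 direction in all pairs, as the smallest Euclidean distance over the 4 arrays among 17685 other named genes. For Fkbp5 they were Ccdc37, Cyp2c70, 2310040A07Rik (now Enho), Gm684 and Saa4, at distances of 0.46 to 0.65. For Errfi1 they were Cyp4v3, 5033411D12Rik (now Sugct), Lrit2, Ivd and Nfkbia, at 0.15 to 0.18. For Hsd11b1 they were Rabggtb, Bphl, Fahd2a, Klhl5 and Vamp3, at 0.09 to 0.14. Within a distance of 0.5 lay 853 genes for Hsd11b1, 124 for Errfi1 and 1 for Fkbp5. Such counts also depend on how far a gene's values lie from 0, so they do not rank how common each profile's shape is. Nfkbia, which encodes an inhibitor of NF-kappa-B and is itself induced by the hormone, was at 0.38, 0.58, 0.40 and 0.79 beside Errfi1.

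**Figure D4:**
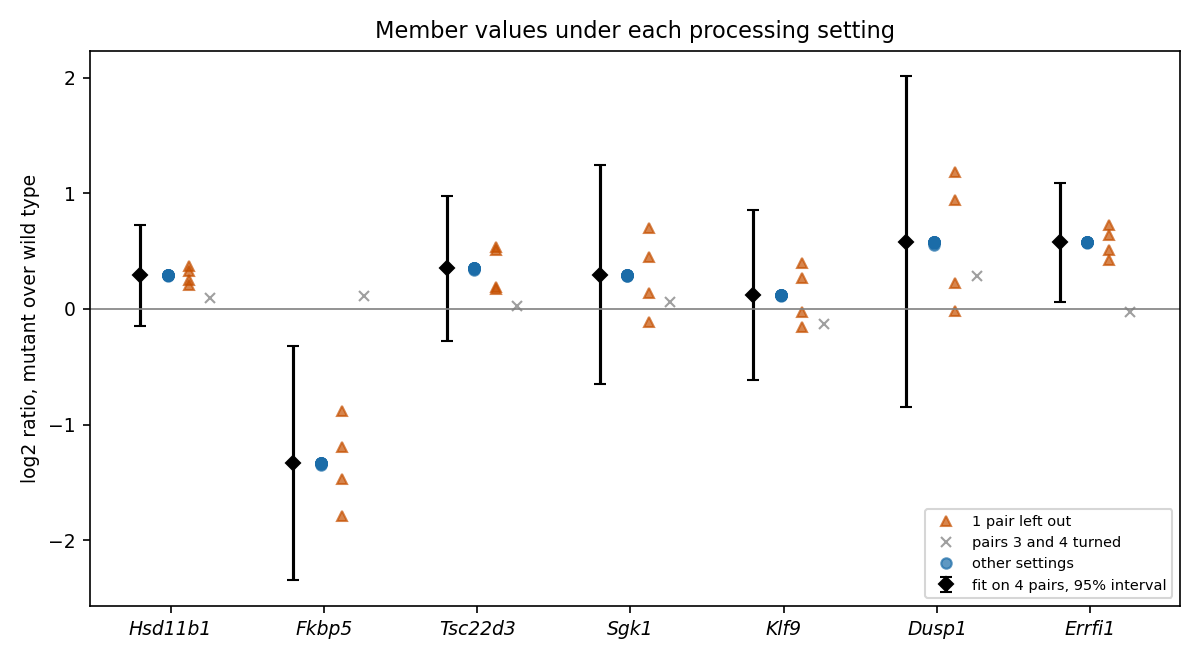
Log2 ratio of mutant over wild type (vertical axis) for the 7 tested members (horizontal axis): black diamonds are the fit on 4 pairs with its 95% interval, orange triangles leave out 1 pair, grey crosses turn the sign of pairs 3 and 4, and blue circles are the other settings. Leaving out 1 pair moves Dusp1 between -0.02 and 1.18 and Hsd11b1 between 0.21 and 0.37. In those fits a lone pair of an orientation counts as much as both pairs of the other. The grey crosses equal the dye coefficient and lie between -0.13 and 0.28.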

How the data were processed

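Liver RNA of 4 Wrn mutant and 4 wild-type animals was compared on 4 two-colour arrays, 1 animal of each genotype per array, and the ratio within an array is the unit of analysis. The labels call the pairs biological replicates. Deposited by the authors were a log2 ratio for each probe on each array and a table with 1 named probe per gene, its average log2 intensity, a fold change and a p-value, per the file headers. The deposited fold changes and p-values were not used. The submitters' processing notes name limma. For background correction, normalization and filters, the sources used here give nothing. Signal over background was not analysed here.

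Probes with at least 3 values (40238) were fitted in limma 3.58.1 (R 4.3.3) on genotype plus a dye term, with eBayes and Benjamini-Hochberg adjustment at 0.05, which left 2 residual degrees of freedom in a probe with 4 values. The code was tested on simulated data. All 4 columns were read in 1 direction. Other tests were exact two-sided sign-flip permutations of the pairs. List genes were matched by accession first and then by symbol, and 272 of 281 were found. Of 17813 accessions, 17284 matched RefSeq GRCm38.p6. The 12 related lists and 10 marker lists got no set test. For their counts, 53.4% of named genes had a mean above 0, and 10.9% were higher and 10.1% lower in 4 of 4 pairs. Members and lists were chosen with earlier results of these data known.

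Genes named were the members, Wrn, fixed pathway genes (Nr3c1, Per1, Tat, Pck1, Igfbp1, Serpina6, H6pd, of which Pck1 was not matched to a named probe), up to 3 genes per list and direction with 1 sign in 4 pairs and the smallest unadjusted p, and the 5 nearest profiles. Promoters came from RefSeq. Mean ± SD is over pairs. Alternatives were no dye term, turned pairs, leaving out each pair, centring, scaling, array weights, robust or intensity-following priors, other probe sets, an unmoderated test and a threshold of 0.1.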

Additional observations from a re-analysis of the deposited data

Results flagged for a closer look

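Pairs far from the other 3 were looked for in 74 results, and 3 had one, where chance gives about 3.7. Abcb1b, the efflux pump gene, had a log2 ratio of -2.07 in pair 1, against -0.54 to -0.39 in the other pairs. Sinusoidal endothelial markers had a median log2 ratio of 0.12 in pair 3, against 0.34 to 0.37 in the others. Missing values numbered 3547 in pair 1 and between 1070 and 1195 in the other arrays. Zfp36 was among the probes without a value in pair 1, and it also had none in pair 2, where 1142 values were missing.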

How the results depend on the processing

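No member passed an adjusted p of 0.05 under any alternative run, and the lowest adjusted p was 0.138, for Fkbp5, with a prior following intensity. That prior called 42 of 20379 named probes (0.206%) and the bright named probes alone gave 1 of 10414 (0.0096%), against 0 of 40238 in the test used here. Fkbp5 stayed below 0 and Tsc22d3, Errfi1 and Hsd11b1 above 0 under each alternative that estimates the genotype value. Turning the sign of pairs 3 and 4 gives the dye coefficient instead, so it cannot show how stable the genotype value is. It was 0.11 for Fkbp5, -0.025 for Errfi1 and -0.13 for Klf9, and above 0 for Tsc22d3 and Hsd11b1. When 1 pair was left out, Sgk1 ran from -0.11 (pair 1 left out) to 0.70, Klf9 from -0.15 (pair 4) to 0.39, with -0.029 without pair 2, and Dusp1 from -0.019 (pair 4) to 1.18. These fits hold fewer pairs, and a lone pair of an orientation then counts as much as both pairs of the other. They also drop a gene that lacks a value in a remaining pair, so list medians can rest on fewer genes. The member median ran from 0.17 to 0.51 and the count of members with 1 direction on every array from 3 to 5 when 1 pair was left out. The count was 5 without pair 3, where Tsc22d3 and Dusp1 joined. Leaving out 1 pair, medians ran from -0.045 (pair 2 left out) to 0.33 for SGK relatives, from -0.095 (pair 4) to 0.068 for ZFP36 relatives, with -0.064 in bright probes, and from -0.062 (pair 3) to 0.16 for DUSP genes, and the cause was not tested. In bright probes the median was 0.30 for KLF genes, 0.45 for repressed genes, -0.068 for immediate early genes, 0.15 for TSC22D relatives and 0.074 for supply genes. A shorter core, ACANNNTGT, was in 6.85% of all start windows and in 2 of the 16 of these genes, both of Sgk1, against 0.475% for the full element. By correlation in place of distance, 0 of the 5 nearest profiles were the same for each of the 3 genes. No further replicate block was fitted, since each ratio already pairs the 2 animals of an array.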
